A study of Rattus norvegicus with 4 samples.

Results

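The aldehyde dehydrogenase genes described here are Aldh1a1, Aldh1a2, Aldh1a3, Aldh1b1, Aldh2, Aldh3a1, Aldh3a2, Aldh6a1, Aldh7a1 and Aldh9a1, 10 of the 15630 genes that could be named on a rat whole-genome array. They were found by the gene name printed in the array files, which gave 11 of 41012 probes: 1 probe for each of 9 genes and 2 for Aldh7a1. Colon mucosa RNA was taken from F344 rats, which are inbred. Every rat, controls included, drank 5% dextran sodium sulphate (DSS), which injures the colonic epithelium and causes colitis, for 5 days. Controls ate standard chow beforehand. The treated rats instead received 20 days of resveratrol, a polyphenol found in grapes, in a daily dose of 1 mg per kg; whether it continued during DSS is not stated in the labels. The study names 8 rats in each group. Each of 4 arrays carried RNA pooled from a different pair of resveratrol rats, labelled with the dye Cy5, against a pool of control RNA labelled with Cy3, and is called replicate 1, 2, 3 or 4 below. No group without DSS was measured, so the values compare 2 kinds of DSS-exposed mucosa. The control RNA is treated here as 1 control sample; the labels do not say how many rats were pooled for it or whether a single pool served every array. The dyes were never exchanged, so dye and treatment cannot be told apart.

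Aldehyde dehydrogenases oxidise aldehydes to carboxylic acids with NAD+ or NADP+. The Aldh1a enzymes turn retinaldehyde into retinoic acid, which in the gut guides epithelial differentiation and lymphocyte homing. Aldh2 and Aldh1b1 are mitochondrial enzymes that clear acetaldehyde, Aldh3a1 and Aldh3a2 act on aldehydes from lipids, and Aldh6a1, Aldh7a1 and Aldh9a1 serve the breakdown of valine, lysine and amino-aldehydes.

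The 4 sequences below come from the array files and are shown because later paragraphs refer to them. Each probe is 60 bases long. The first pair are 30-base stretches of the Aldh1a1 probe (its bases 28 to 57) and the Aldh3a1 probe (its bases 1 to 30), with capitals marking hexamers that were frequent among the highest ratios of the whole array. The second pair are the whole Aldh7a1 probes, which gave different ratios. All are written 5′ to 3′ as in the files.
Aldh1a1 probe: tcctacaaAACCACTCACCttctaatatgt
Aldh3a1 probe: gaaggactCTCACCTCACtcctccaaattc
Aldh7a1 upstream probe: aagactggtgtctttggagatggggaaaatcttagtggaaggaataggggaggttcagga
Aldh7a1 downstream probe: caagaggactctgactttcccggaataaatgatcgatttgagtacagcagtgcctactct
On the rn3 build named in the file headers, the Aldh1a1 probe lies at chr1:223936881-223936940 on the plus strand and the Aldh3a1 probe at chr10:47388427-47388485 on the plus strand. The Aldh7a1 probes lie on the minus strand at chr18:52369927-52370844 and chr18:52346485-52346544. The upstream one covers 918 bases of genome with its 60 bases, so it is split over more than 1 block, and 23383 bases separate it from the downstream one. No exon annotation of rn3 was used here, so exon, intron or untranslated region is not given.

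Values are log2 ratios of Cy5 over Cy3, so a positive value is higher with resveratrol. Each mean was tested against 0 with limma over all 18896 probes tested, with Benjamini-Hochberg adjustment, and a probe is called at an adjusted p of 0.05 or less. Of the 11 probes, 8 were tested, standing for 8 readings of 7 genes. Of these 8 readings, 3 passed and all 3 were higher: Aldh1a1, Aldh2 and Aldh3a2. Over the whole array 47.1% of tested probes were called, 24.3% higher and 22.7% lower. The median of the 8 means was 0.21, and the median of all tested probes was -0.02. The other 3 probes were not tested: Aldh1a2 and Aldh6a1 were too dim, and the Aldh3a1 spot carried an outlier flag on every array.

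**Figure D1:**
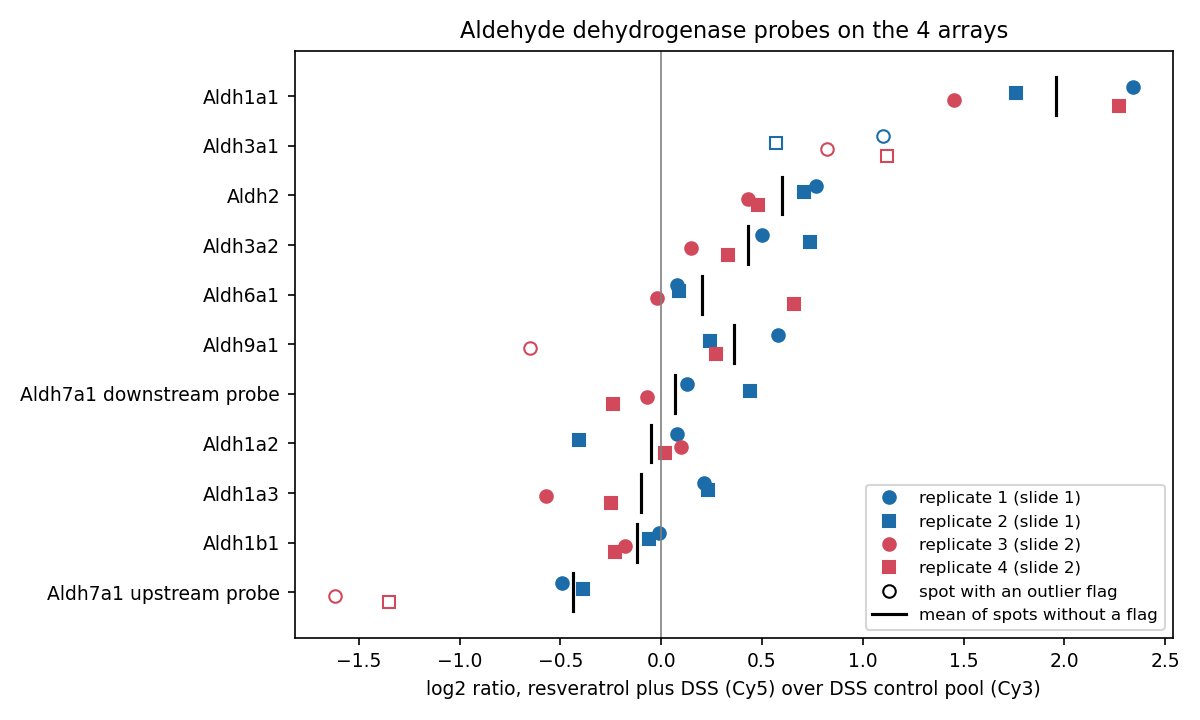
Log2 ratio (x axis, resveratrol plus DSS over DSS control pool) of the 11 probes (rows) on the 4 arrays, with colour for the slide, filled symbols for spots without a flag, open symbols for spots with an outlier flag, and a bar at the mean of the unflagged spots. Aldh1a1 lies apart at 1.45 to 2.34, Aldh2 and Aldh3a2 are above 0 on all 4 arrays, and the flagged spots of the upstream Aldh7a1 probe lie at -1.62 and -1.35.

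Aldh1a1, the cytosolic retinaldehyde dehydrogenase that marks many epithelial cells, had log2 ratios of 2.34, 1.76, 1.45 and 2.27 on replicates 1 to 4. All 4 arrays were high, and the normalized Cy5 signals (12.26 to 13.28 in log2) did not overlap the Cy3 signals (10.50 to 11.38). The mean was 1.96 ± 0.17 (moderated SE, n = 4 arrays; limma, adjusted p = 0.00404), a 3.88-fold higher signal, with an SD between arrays of 0.42. Counting its own, 33 of the 18896 tested probes, 0.175%, had a mean this high or higher. The call was kept under all 20 other ways of processing that could change a value, with means from 1.83 without replicate 1 to 2.62 with flagged spots kept. On slide 1, which held replicates 1 and 2, the mean was 2.05, and on slide 2 it was 1.86.

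The Aldh1a1 probe holds hexamers that were frequent among the highest ratios of this array. Among the 200 probes of highest ratio, 12 hexamers were each present in at least 20 probes and at least 8 times as frequent as among all tested probes; they were picked from these same ratios, on the probe strand only. At least 1 of them occurred in 84.5% of those 200 probes and in 15.8% of all tested probes. The Aldh1a1 probe holds AACCAC and CTCACC, overlapping by a single base. AACCAC was in 24.5% of the 200 and in 1.94% of all, and CTCACC in 20.5% and 1.74%. Probes with a hexamer had a median ratio of 0.08 and were called higher in 31.1% of cases, against -0.04 and 23.1% for the rest. Of the 33 probes at or above Aldh1a1, itself included, 22 held a hexamer, and 0.736% of the probes with a hexamer reached its value against 0.0691% of those without. Those 33 are among the 200 from which the hexamers were picked, and 169 of the 200 are counted among the probes with a hexamer. All these contrasts, medians and shares called included, follow in part from that choice and give no test of the sequence. The part of the sequence in the ratio was not tested, and there is no second Aldh1a1 probe among those measured. Of the other called members, the Aldh3a2 probe holds CAACCA and the Aldh2 probe holds none of the 12. The Aldh1a3 probe, which was not called, holds TCACCA and had a mean of -0.10.

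**Figure D2:**
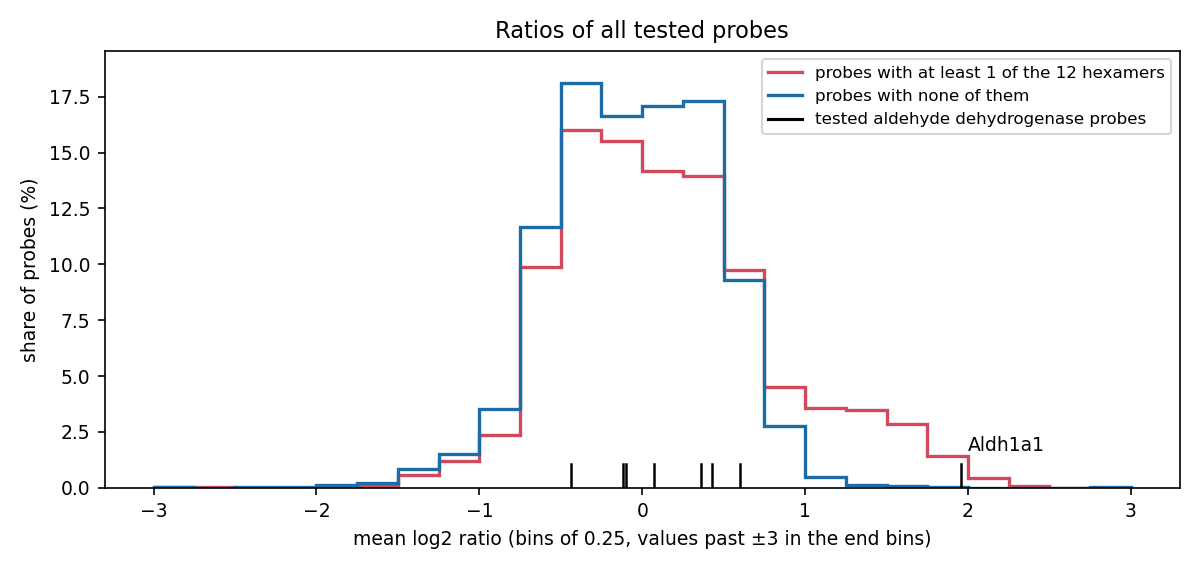
Share of probes (y axis, %) by mean log2 ratio (x axis, bins of 0.25) for all tested probes that hold at least 1 of the 12 hexamers and for those that hold none, with short black lines at the 8 tested aldehyde dehydrogenase probes. The curve of probes with a hexamer has a shoulder above 1 that the other lacks. Aldh1a1 at 1.96 lies in that shoulder, while the other 7 probes lie between -0.44 and 0.60. Part of the shoulder was built in, because a raised frequency among the 200 top ratios, Aldh1a1 included, defined the 12 hexamers. The shoulder therefore gives no test of the probe sequence.

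Aldh1a2, the main embryonic retinaldehyde dehydrogenase, also made by stromal and dendritic cells, stayed too dim to measure, in both channels of all 4 arrays. Its signals were 6.40 to 7.06 in Cy5 and 6.32 to 6.96 in Cy3, below the lowest signals rated well above background, which ran from 7.13 to 7.92 over arrays and channels. Its level could not be compared at this sensitivity. Aldh1a3, the third enzyme of this branch, had ratios of 0.21, 0.23, -0.57 and -0.25. The arrays of slide 1 were above 0 and those of slide 2 below it, with slide means of 0.22 and -0.41. The overall mean was -0.10 ± 0.16 (n = 4; limma, adjusted p = 0.611).

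Aldh2, the mitochondrial enzyme that removes acetaldehyde, had ratios of 0.77, 0.71, 0.43 and 0.48. It was higher with resveratrol on each array, by less than Aldh1a1 on every one, with gaps between them of 1.57, 1.04, 1.03 and 1.79. The mean was 0.60 ± 0.10 (n = 4; limma, adjusted p = 0.00791), or 1.51-fold. The channels' ranges met over the arrays, with Cy5 at 10.66 to 11.33 and Cy3 at 10.18 to 10.70. Its mean was 0.34 (adjusted p = 0.189) from the scanner's processed signals, 1.11 under median centring and 1.03 with flagged spots kept, and on slide 2 alone it was 0.45 (adjusted p = 0.0817). Aldh1b1, a mitochondrial relative known from crypt stem cells, had ratios of -0.01, -0.06, -0.18 and -0.23. All 4 lay just below 0, and the mean of -0.12 ± 0.08 did not pass (n = 4; limma, adjusted p = 0.267).

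**Figure D3:**
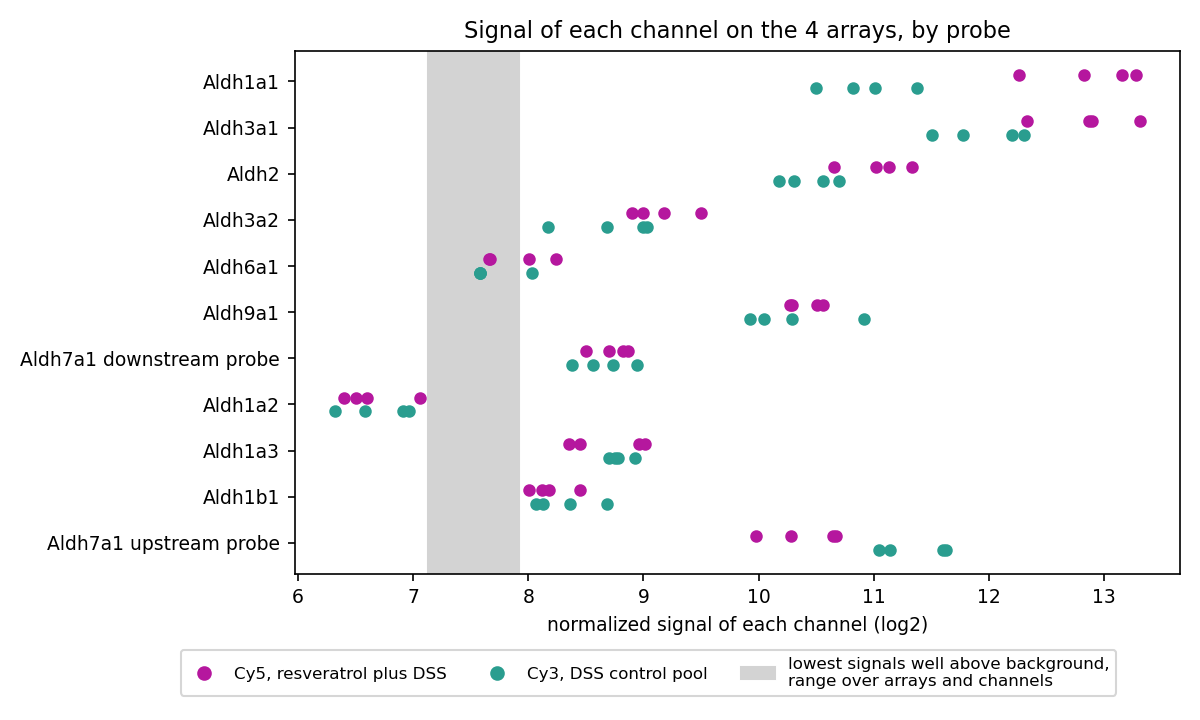
Normalized log2 signal (x axis) of Cy5 (resveratrol plus DSS) and Cy3 (DSS control pool) on the 4 arrays for each probe (rows), with a grey band for the lowest signals well above background. The Aldh1a1 channels are apart, those of Aldh2 and Aldh3a2 overlap between arrays, Aldh6a1 sits at the band and Aldh1a2 below it.

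Aldh3a2, the fatty aldehyde dehydrogenase of the endoplasmic reticulum, had ratios of 0.50, 0.74, 0.15 and 0.33. It was above 0 on all 4 arrays, with both slide 1 arrays above both slide 2 arrays. The mean was 0.43 ± 0.12 (n = 4; limma, adjusted p = 0.0298), or 1.34-fold. The call was lost without replicate 1 (0.40, adjusted p = 0.100), replicate 2 (0.32, 0.120) or replicate 4 (0.46, 0.0577), on slide 2 alone (0.24, 0.271), and when the standard error was widened to allow the pool a spread (0.115). From the processed signals it was also lost (0.49, adjusted p = 0.0937).

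Aldh3a1, an enzyme abundant in cornea and stomach that handles products of lipid peroxidation, was well above background in both channels on all 4 arrays. The scanner software flagged its Cy3 spot as uneven on each array, so it has no tested value. The flagged spots gave ratios of 1.10, 0.57, 0.82 and 1.12, all above 0. With those spots admitted and the normalization curve unchanged, a choice made after seeing the data, the mean was 0.90 ± 0.13 (n = 4; limma, adjusted p = 0.0165). With flagged spots also shaping the curve it was 1.55 ± 0.23 (adjusted p = 0.00228). Its probe holds 4 of the 12 hexamers, overlapping in the 1 stretch capitalised above; among them is CTCACC, which the Aldh1a1 probe also holds.

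Outlier flags of any kind, in either channel, were most common where the control signal was strong. When probes were ranked by Cy3 signal into 10 equal classes, the brightest class had 19.1% and 20% of probes flagged on replicates 1 and 2 and 60.7% and 67.4% on replicates 3 and 4. In the other classes together the share was 1.26% to 7.36%. Missing values of Aldh7a1 and Aldh9a1 come from flags for an uneven Cy3 spot, as for Aldh3a1.

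Aldh7a1, which oxidises an aldehyde of lysine breakdown and betaine aldehyde, was read differently by its probes. The downstream probe had ratios of 0.13, 0.44, -0.07 and -0.24, above 0 on slide 1 and below it on slide 2, and its mean of 0.07 ± 0.13 did not pass (n = 4; limma, adjusted p = 0.674). The upstream probe had -0.49 and -0.39 on replicates 1 and 2, with a mean of -0.44 ± 0.13 that narrowly missed the threshold (n = 2; limma, adjusted p = 0.0572). Its flagged spots on replicates 3 and 4 gave -1.62 and -1.35. With these admitted and the curve unchanged the mean was -0.96 (n = 4; limma, adjusted p = 0.0319), and with flagged spots also shaping the curve it was -0.52 (adjusted p = 0.0095). From replicates 1 and 2 alone, the probe also passed in the authors' deposited table (-0.56, limma, adjusted p = 0.0485), with no filter on dim probes (0.0482), without replicate 3 (0.0364) and on slide 1 (0.00855). Without replicate 4 it did not pass (0.0603). Apart from the deposited table, these settings share the mean of -0.44, and only the spread and adjustment drawn from other probes differ. Under median centring its mean was -0.00 (adjusted p = 0.995). The downstream probe exceeded the upstream one on every array, by 0.63, 0.83, 1.56 and 1.12, the last pair with flagged spots. No single direction can be given for the gene.

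Aldh9a1, which makes gamma-trimethylaminobutyraldehyde into a carnitine precursor, had ratios of 0.58, 0.24 and 0.27 on replicates 1, 2 and 4. These 3 were above 0, and the mean of 0.36 ± 0.12 missed the threshold (n = 3; limma, adjusted p = 0.0555). The flagged spot of replicate 3 gave -0.65, and with it the mean fell to 0.11 on the unchanged curve (adjusted p = 0.689). With flagged spots also shaping the curve the mean of the 4 arrays was 0.48 (limma, adjusted p = 0.0222). Without replicate 3, whose spot enters nothing here, the adjusted p was 0.0381, and under median centring the mean was 0.81 (adjusted p = 0.000257). Under median centring the standard errors of the named probes differed only with their number of arrays, so this p-value rests on a spread pooled over probes. A pseudogene of Aldh9a1 has its own probe, and cross-hybridisation between the transcripts was not tested. Aldh6a1, the mitochondrial enzyme of valine and thymine breakdown, had ratios of 0.08, 0.09, -0.02 and 0.66. Each channel was well above background on 1 array only, so no test was made.

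**Figure D4:**
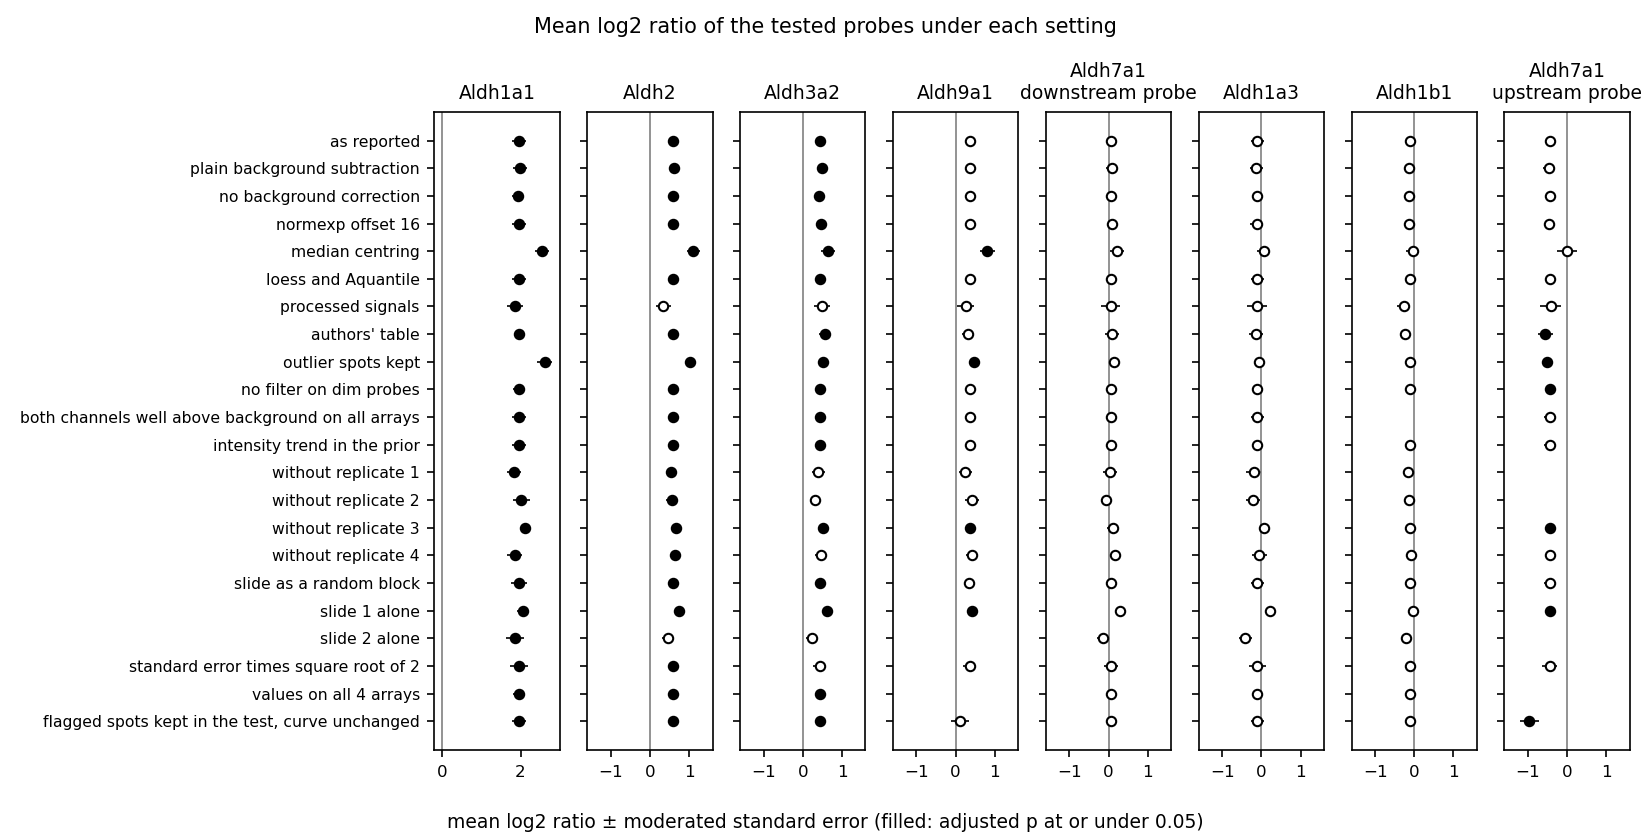
Mean log2 ratio ± moderated standard error (x axes; filled symbols have an adjusted p of 0.05 or less) of the 8 tested probes (panels) under the reported setting and 21 others (rows), of which loess with Aquantile leaves ratios unchanged by construction. Aldh1a1 stays filled between 1.83 and 2.62, Aldh3a2 turns open in 6 settings, and the upstream Aldh7a1 probe runs from -0.00 under median centring to -0.96 with flagged spots kept on the unchanged curve.

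Genes around these enzymes were counted through each gene's brightest probe. Of 59 tested genes in 5 lists, 19 were higher and 9 lower, 32.2% and 15.3%, 28 in all, against 25.7% and 19.6%, together 45.3%, of all 9492 named genes tested. Under median centring, which moved the median of all probes to 0.20, the same lists gave 26 higher and 2 lower. Every named probe with 4 values then had a standard error of 0.17, so these calls rest on a spread pooled over probes. The lists hold 111 gene names, of which 97 are on the array, and older and newer names of a few genes were counted apart.

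Of the other aldehyde dehydrogenases, 3 of 10 listed genes were tested and all 3 were higher. Aldh18a1, the enzyme of proline synthesis, had a mean of 0.53 ± 0.11 (n = 4; limma, adjusted p = 0.0138), with Cy3 well above background on 2 arrays. Aldh16a1 stood at 0.45 ± 0.10 (adjusted p = 0.0169) and the folate enzyme Aldh1l1 at 0.35 ± 0.10 (adjusted p = 0.0322), also with a dim control channel on 2 arrays. Aldh18a1 lost its call without replicate 2 (adjusted p = 0.0546), Aldh16a1 without replicate 1 or 2 (0.0639 and 0.0665), and Aldh1l1 without replicate 1, 2 or 3 (0.119, 0.116 and 0.0614). Aldh1l1 also lost it with the slide as a random block (0.0564), from processed signals (0.0591) and with flagged spots kept on the unchanged curve (0.0506). From processed signals and the authors' deposited table the means were 0.99 and 0.95 for Aldh18a1 and 0.61 and 0.64 for Aldh1l1, and median centring gave 0.72 for Aldh16a1. All 3 missed the threshold with the widened standard error, at adjusted p between 0.0685 and 0.121. On slide 2 alone all 3 missed it too, at adjusted p between 0.0697 and 0.23.

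Among other enzymes that make or remove aldehydes, 6 of 14 tested genes were higher and 2 lower, and the median was 0.08. The aldo-keto reductase gene Akr7a2 had ratios of 0.84, 0.54, 0.79 and 0.61, with a mean of 0.69 ± 0.09 (limma, adjusted p = 0.00542). Sord, sorbitol dehydrogenase, was at 0.58 ± 0.09 (adjusted p = 0.00725). The alcohol dehydrogenase gene Adh6 was lower on every array, at -0.50, -0.54, -0.56 and -0.38, with a mean of -0.49 ± 0.08 (adjusted p = 0.00827). Without replicate 2 its adjusted p was 0.0502. On slide 2 alone Sord and Adh6 lost their calls (adjusted p = 0.0586 and 0.0827). Sord had its control channel, and Adh6 its resveratrol channel, well above background on 2 arrays. From processed signals and the authors' deposited table the means were 1.09 and 1.13 for Sord and -0.75 and -0.81 for Adh6.

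In the retinoid list, which holds the genes that feed or read the Aldh1a enzymes, 2 of 19 tested genes were higher and 5 lower, with a median of -0.14. Retsat, a retinol saturase, rose to 0.94 ± 0.13 (n = 4; limma, adjusted p = 0.0059), and its probe holds a hexamer. Rxra, a partner receptor of the retinoic acid receptors, rose to 0.66 ± 0.12 (n = 4; adjusted p = 0.00972). Rxra lost its call on slide 2 alone (0.53, adjusted p = 0.0809) and with the widened standard error (0.0533). Rarb, a retinoic acid receptor gene that is itself a retinoic acid target, had ratios of -0.65, -0.49 and -0.85 on replicates 1, 2 and 4 and a mean of -0.67 ± 0.12 (n = 3; adjusted p = 0.0128). Its call was lost under median centring (-0.23, adjusted p = 0.363), without replicate 1 (-0.67, adjusted p = 0.0593) and with the widened standard error (0.0607). Cyp26a1, Cyp26b1, Crabp2 and Lrat were among the 18 listed gene names with no tested value.

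Branched-chain amino acid breakdown, the route of Aldh6a1, had 5 of 16 tested genes higher and 1 lower, with a median of 0.12. Echs1, a mitochondrial enoyl-CoA hydratase, had ratios of 1.34, 1.53, 1.15 and 0.89 and a mean of 1.23 ± 0.12 (limma, adjusted p = 0.00409). Auh was at 0.75 ± 0.13 (adjusted p = 0.0098) and Mccc1, of leucine breakdown, at 0.45 ± 0.09 (adjusted p = 0.0137). Mccc1, whose control channel was dim on 2 arrays, lost its call without replicate 1 or 2 (adjusted p = 0.0589 and 0.0703) and from processed signals (0.0568). The mean of Auh was 1.15 in the authors' deposited table. Of the 7 tested partners of Aldh7a1, Aldh9a1 and Aldh3a2, 3 were higher and 1 lower. Gcdh, of lysine breakdown, was at 0.64 ± 0.11 (adjusted p = 0.00897) and the monoamine oxidase gene Maoa at 0.41 ± 0.09 (adjusted p = 0.0175), but second probes gave -0.33 (adjusted p = 0.0501) and -0.23 (adjusted p = 0.0759). Sgpl1, the sphingosine phosphate lyase whose product Aldh3a2 oxidises, was at 0.43 ± 0.11 (adjusted p = 0.0268). Maoa lost its call without replicate 1 or 2 (adjusted p = 0.0666 and 0.0512), and Sgpl1 without replicate 1 or 4 (0.0698 and 0.0717) and on slide 1 alone (0.23, adjusted p = 0.0897). On slide 2 alone Mccc1, Maoa and Sgpl1 lost their calls (adjusted p = 0.126, 0.068 and 0.0529). With the widened standard error Auh, Mccc1, Gcdh, Maoa and Sgpl1 missed the threshold, at adjusted p between 0.0501 and 0.106. Gcdh had its control channel well above background on 2 arrays. From processed signals the means were 1.09 for Gcdh, 0.70 for Maoa and 0.68 for Sgpl1. The authors' deposited table gave means of 1.05 for Gcdh and 0.65 for Sgpl1, and median centring 0.62 for Maoa.

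In the authors' deposited table the called members had the same direction on all 4 arrays. For Aldh1a1 the authors' deposited table gives 2.27, 1.73, 1.74 and 2.10, for Aldh2 0.68, 0.69, 0.57 and 0.42, and for Aldh3a2 0.56, 0.92, 0.34 and 0.42. For Aldh1a3 the authors' deposited table gives 0.21, 0.26, -0.64 and -0.40, with the same division between slides.

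**Figure D5:**
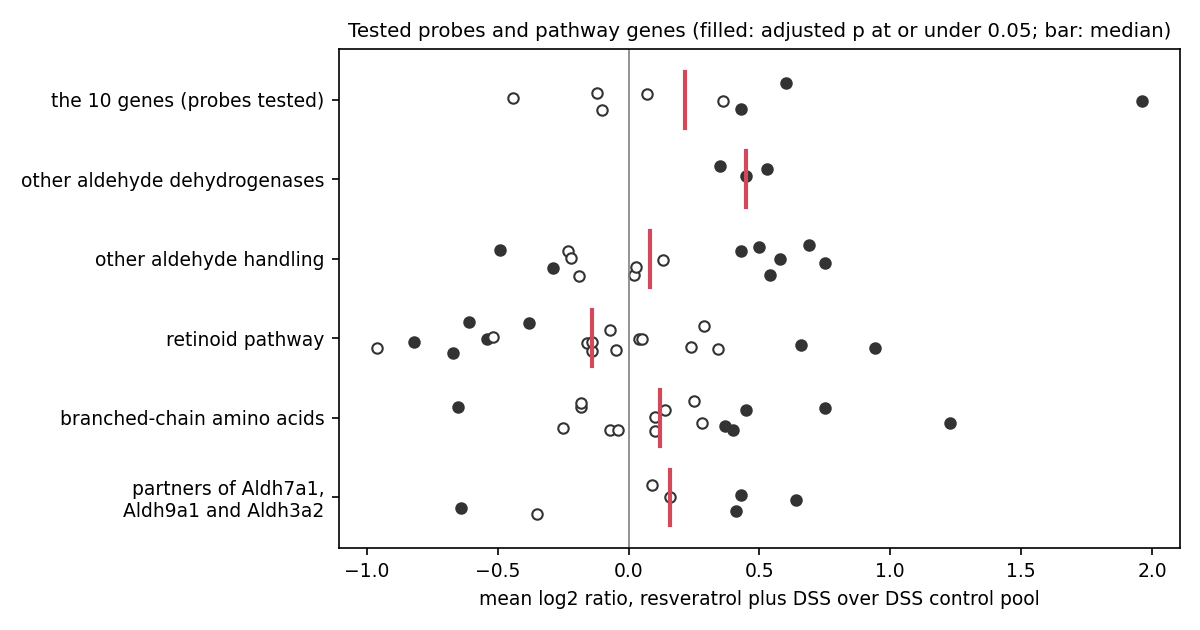
Mean log2 ratio (x axis) of the 8 tested probes of the 10 genes and of the tested genes of 5 pathway lists (rows), filled where the adjusted p was 0.05 or less, with a red bar at each median. The 3 tested genes of the other aldehyde dehydrogenases are all filled between 0.35 and 0.53, and the retinoid list spreads to both sides of 0 around a median of -0.14.

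Many cell type markers also differed between the channels. In bulk tissue fewer cells of a type and less RNA per cell cannot be told apart. For comparison, 25.7% of all 9492 named genes tested were higher and 19.6% lower. Of 18 epithelial markers, all tested, 10 were higher and none lower, with a median of 0.76 and array medians of 0.24 to 0.90. The log2 of their summed signals, in which the brightest markers weigh most, was 17.15 to 18.12 in Cy5 and 16.33 to 17.21 in Cy3. Of 7 tested fibroblast markers 6 were lower and of 7 tested leukocyte markers 5 were lower, with medians of -1.18 and -0.75. The log2 of the summed signals was 13.80 to 14.70 in Cy5 against 14.51 to 15.28 in Cy3 for fibroblasts, and 12.25 to 13.36 against 14.06 to 14.51 for leukocytes. Smooth muscle had 2 of 6 lower, mesothelium 2 of 3, erythrocytes 3 of 3 and pancreas 4 of 5, and no marker of these lists was higher; neither of 2 tested liver markers passed. Among the markers with no tested value were Thy1 and Lum of fibroblasts, Cd68 and Itgam of leukocytes and Alb of liver. The part of cell composition in the aldehyde dehydrogenase ratios was not tested.

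The scanner rated 44.1% to 49.2% of Cy5 spots and 42.8% to 57.1% of Cy3 spots as well above background. Precision is limited by having 4 arrays. The replicates correlated with one another across tested probes at r between 0.70 and 0.89, the highest between the arrays of slide 1; probes are not independent replicates. The p-values measure the spread between 4 pools of rats and leave out that of the control rats, whatever the makeup of the pool.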

How the data were processed

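RNA of 4 resveratrol pools was read on 2-colour Agilent arrays against a control pool. Each deposited scan lists intensity per spot, extracted with version 9.5.3.1 of the Agilent software, and rn3 probe positions, per the file headers; the software's processed intensity values were background-subtracted, detrended and dye-normalized, per the file headers. The deposited log10 ratios were not used. The authors' deposited value table is read as log2 ratios of Cy5 over Cy3. Its direction was settled by correlation with the scanner ratios (r of 0.98 to 0.99), which cannot tell the scale. On scale, the Aldh1a1 mean was 1.96 in that table and 1.86 from the processed signals in log2. The table's column medians were -0.01, -0.01, 0.09 and -0.02, and its centring is not stated. It matched 9 of the 11 probes. Agilent Feature Extraction and limma are the tools listed in the submitters' processing notes.

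Mean spot signals were corrected with normexp (offset 50) on the local background medians and normalized by loess within arrays in limma 3.58.1 under R 4.3.3. The 1639 control spots had weight 0 in the curve. So did outlier-flagged spots, which were also left out of the test. Spots of a probe were averaged. A probe entered if at least 1 of its spots was well above background in either channel on at least 3 arrays (20436 of 41012 probes) and at least 2 values were left (18896). Of these, 14227 had 4 values, 1969 had 3 and 2700 had 2. Ratios were tested against 0 with lmFit and eBayes (two-sided, Benjamini-Hochberg over all tested probes). Signals per channel are log2 values after loess and Aquantile normalization. The fit was tested on simulated data.

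Probe names were resolved through a RefSeq gene table (GRCr8, names only): 10735 by accession, 126 by another accession, 5536 by symbol, 3703 by synonym and 110 by the file's own name, while 20802 stayed unnamed. Members and lists were chosen with earlier results of these data known. Named were every member probe and, in each of the 5 pathway lists, up to 3 genes past the threshold in order of adjusted p; all markers were counted by brightest probe. Of 21 alternatives, 20 were planned (1 of them, Aquantile after loess, cannot change a ratio) and 1, keeping flagged spots on the unchanged curve, was chosen after seeing the data.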

Additional observations from a re-analysis of the deposited data

Results flagged for a closer look

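On 4 arrays, a single array lay far from the other three for 3 of the 22 probes and genes examined, by a rule that chance meets in about 1 of 20 groups. Aldh6a1 was at 0.66 on replicate 4, with the others between -0.02 and 0.09, and Aldh1a2 was at -0.41 on replicate 2, with the others between 0.02 and 0.10. Both were dim: Aldh1a2 was well above background on 0 arrays, and Aldh6a1 on 1 in each channel. In the authors' deposited table Aldh6a1 also stood highest on replicate 4, at 1.44. Aldh18a1 was at 0.84 on replicate 3 and between 0.39 and 0.47 on the others. Aldh3a1 had a signal only in spots left out of the test for an outlier flag, with a mean log2 ratio of 0.90 over the 4 arrays.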

How the results depend on the processing

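Of 21 alternatives, 1 (loess with Aquantile) leaves every ratio unchanged by construction and says nothing about stability. Aldh1a1 was called under the other 20; Aldh2 was lost under 2 of them and Aldh3a2 under 6, with values beside each gene. Of the member probes, in place of 3 of 8 tested, 6 of 9 were called with flagged spots kept and 5 of 9 with them kept on the unchanged curve. On slide 1 alone 5 of 8 were called, on slide 2 alone 1 of 6, and from processed signals 1 of 8. Leaving out 1 array gave 2 to 5 (5, 4 higher and 1 lower, without replicate 3). Whole-array counts under the same settings are given below. The median of the member means, 0.21, was 0.43 under median centring, 0.48 and 0.11 with flagged spots kept in those same 2 ways, 0.36 with both channels well above background, 0.35 on slide 1, 0.04 on slide 2, and 0.24 to 0.32 without 1 array. Of the pathway genes, in place of 28, 17 were called from processed signals, 15 with both channels well above background, 10 on slide 2, 5 with the standard error times the square root of 2, and 10 to 24 without 1 array (10 each without replicate 1 or 2). With flagged spots kept 41 were called (24 higher, 17 lower) of 67 tested, on the unchanged curve 28 (15 higher, 13 lower). Over all probes, in place of 8896 of 18896, 4562 of 13137 were called with both channels well above background. On slide 1 alone 10765 of 18356 were called, and on slide 2 alone 1755 of 14512. Processed signals gave 5971 of 18896, and the standard error times the square root of 2 gave 2190 of 18896. Without 1 array the counts were 3404 to 8976 (3484 without replicate 1, 3404 without replicate 2, 8976 of 18687 without replicate 3). With flagged spots kept, 13140 of 20436 were called, and 9368 of 20436 on the unchanged curve. The split of 4601 higher and 4295 lower was 6856 and 1842 under median centring and 3828 and 5540 with flagged spots kept on the unchanged curve. The cause of these shifts was not tested, beyond the fewer arrays or probes that some settings leave. With the slide as a random block (correlation 0.218), the 3 called members passed, and 23 pathway genes were called. No paired analysis was possible because there is 1 group, and each ratio already pairs a pool with the control on its own array. The upstream Aldh7a1 probe had no value without replicate 1 or 2 or on slide 2, nor Aldh9a1 on slide 2, since fewer than 2 arrays were left; both also dropped out where values on all 4 arrays were required, and Aldh1b1 where each channel had to clear background. Signal over background limits Aldh1a2 and Aldh6a1.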

Other observations

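Other family members outside the 10 genes also gave readings. The probe of Aldh9a1-ps1, annotated as a pseudogene of Aldh9a1, had ratios of 0.37, 0.08, 0.49 and 0.58 and a mean of 0.38 ± 0.11 (n = 4; limma, adjusted p = 0.0324), near the 0.36 of Aldh9a1, and it carried no flag on replicate 3. Aldh3b1, a relative of Aldh3a1, was well above background on all 4 arrays but flagged on each, and its flagged spots gave -0.76, -0.68, -2.01 and -1.07, below 0 where those of Aldh3a1 were above it. A probe that the array files name Aldh1a4 was well above background on 0 arrays. Aldh5a1, of GABA breakdown, was well above background in Cy5 on 1 array and in Cy3 on 2 and was not tested. These 4 were singled out after their values were seen.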
